A study of Mus musculus with 45 samples.

Results

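10 genes named here write, copy, erase or shield methylation of cytosine in DNA: Tet1, Tet2, Tet3, Dnmt1, Dnmt3a, Dnmt3b, Dnmt3l, Uhrf1, Dppa3 and Zfp57. They were taken by symbol from a table of read counts, where each matched 1 row, so that the set holds 10 of 55357 gene rows. RNA was sequenced from 45 single mouse oocytes in 5 groups. Oocytes of 3 groups were grown in reconstituted chimeric follicles (RCF), made by moving an oocyte into another follicle emptied of its own, followed by culture. YY (n = 11) holds young oocytes with young somatic cells, AA (n = 12) aged oocytes with aged somatic cells, and AY (n = 6) aged oocytes with young somatic cells. The controls were oocytes of young mice, either after culture (in vitro young, n = 8) or without culture (in vivo young, n = 8). The labels give no age in months, strain, animal of origin or maturation stage, and young oocytes with aged somatic cells, or aged oocytes outside RCF, were not analysed here.

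In mammals, DNMT3A sets new cytosine methylation in the growing oocyte together with its catalytically inactive partner DNMT3L, and DNMT1, recruited by UHRF1, copies methylation onto the new strand after DNA replication. TET enzymes oxidise 5-methylcytosine, and TET3 is the family member stored in the egg and active in the zygote. DPPA3 (also called Stella) protects maternal methylation after fertilization and limits the access of UHRF1 to the oocyte nucleus, and ZFP57 is a zinc-finger protein that guards imprinted regions. These are the roles of the proteins, and only RNA was measured here.

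Total counts per library ran from 418703 to 2201980, with medians of 792112 in AA, 792576 in AY, 816218 in YY, 1199472 in in vitro young and 1122358 in in vivo young. All 10 oocyte markers had counts in every group, with a median summed CPM of 15850 in YY, 16210 in AA, 18650 in AY, 22400 in in vitro young and 21360 in in vivo young. Of 10 granulosa markers 7 or 8 had counts in each group, with Amh at 0 in all. Inha, a subunit of inhibin, had a median CPM of 39.2 in AA and 35.6 in AY. Its median was 4.64 in YY, 10.2 in in vitro young and 5.29 in in vivo young. Nr5a2 had medians of 37.0 in AA, 33.8 in AY, 41.6 in YY, 42.8 in in vitro young and 36.8 in in vivo young. The YY libraries fall into 2 runs of library numbers, S198 to S202 (n = 5) and S225 to S231 (n = 6). Numbers also break within in vivo young (S17 to S18, S71 to S77), in vitro young (S128 to S129, S148 to S149, S162 to S165) and AY (S234, S240 to S244). Every group has a number range of its own, so that numbering and group cannot be told apart. 8 genes that were either on or off divided the libraries into 10 patterns, of which AA held 2, AY 2 and YY 4. No pattern was shared between AA, AY and YY. The YY patterns split by run: those of S198 to S202 also occurred in the controls, and those of S225 to S231 in no other group. Fits below that use the patterns therefore cannot separate the RCF group from whatever the patterns mark. Libraries that share a pattern may share a source, which the labels do not name, so p-values that treat each library as independent measure only the spread between these libraries. Values below are CPM, read counts brought to a common library size, scaled by TMM over all 45 libraries. A CPM is a share of a library, and the amount of RNA per oocyte was not measured.

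Among the 10 genes, Dppa3 and Zfp57 were by far the most abundant. Per kilobase of annotated exon, mean CPM over the 45 libraries was 4302 for Dppa3 and 755 for Zfp57. Dnmt1 followed with 71.7 CPM per kilobase, Dnmt3l with 63.2, Uhrf1 with 45.6, Tet3 with 36.4, Dnmt3a with 13.04 and Dnmt3b with 2.48. Tet1 (0.326) and Tet2 (0.329) were near the limit of detection. With the length of the longest transcript in place of all exons, Dnmt3l (104 CPM per kilobase) stood above Dnmt1 (90.1) and Tet3 (55.7) stood above Uhrf1 (54.1), so neither order is fixed by these data.

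Tet3 made up nearly all TET transcript in each oocyte. Its share of the summed length-corrected CPM of Tet1, Tet2 and Tet3 lay between 95.5% and 99.6% in all 45 libraries. Tet1 had 0 to 14 counts per library and Tet2 had 0 to 12. Both fell below the filter on low counts and were not tested. Dnmt3l supplied 69.2% to 89.0% of the length-corrected CPM of Dnmt3a, Dnmt3b and Dnmt3l. The plot of members by library shows all 10.

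**Figure D1:**
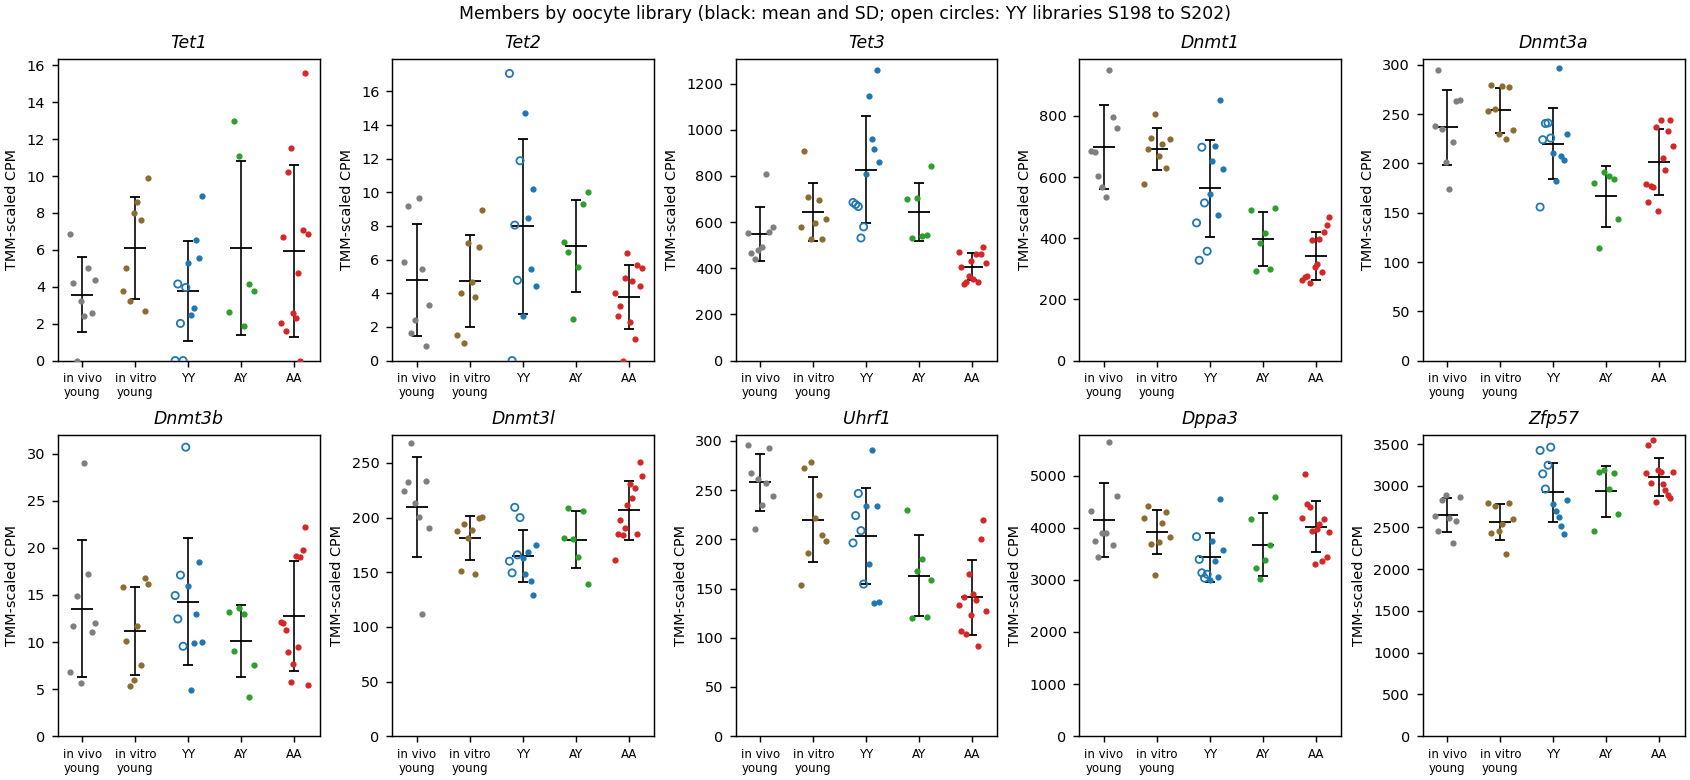
Each point is 1 oocyte library, the y axis is TMM-scaled CPM on a linear scale from 0, and black bars give the mean and SD of a group. Open circles mark the YY libraries S198 to S202; Tet3 in AA (333 to 491 CPM) lies below every YY library (531 to 1260 CPM).

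Tet3, Dnmt1 and Uhrf1 were the members called lower in AA than in YY, and the DNA before their starts is shown for that reason. Sequences are from RefSeq on GRCm38.p6, not the build of the counts, and 9 of the 10 genes matched the promoter table, all but Dppa3. Each line is the 250 bases before an annotated start, read 5′ to 3′ on the gene's strand, with CpG dinucleotides (CG) in capitals.
Tet3, chr6:83441679-83441928, minus strand: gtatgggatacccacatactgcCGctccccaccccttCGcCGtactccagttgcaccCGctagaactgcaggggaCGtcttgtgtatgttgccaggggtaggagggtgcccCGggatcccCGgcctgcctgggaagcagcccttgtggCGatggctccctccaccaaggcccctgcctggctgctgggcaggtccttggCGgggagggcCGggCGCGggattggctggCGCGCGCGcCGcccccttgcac
Dnmt1 upstream start, chr9:20959889-20960138, minus strand: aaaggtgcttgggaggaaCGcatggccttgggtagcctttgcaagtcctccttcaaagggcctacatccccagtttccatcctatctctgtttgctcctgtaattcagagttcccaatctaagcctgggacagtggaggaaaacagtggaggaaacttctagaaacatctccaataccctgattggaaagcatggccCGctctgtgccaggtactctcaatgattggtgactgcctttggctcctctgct
Dnmt1 second start, chr9:20952980-20953229, minus strand: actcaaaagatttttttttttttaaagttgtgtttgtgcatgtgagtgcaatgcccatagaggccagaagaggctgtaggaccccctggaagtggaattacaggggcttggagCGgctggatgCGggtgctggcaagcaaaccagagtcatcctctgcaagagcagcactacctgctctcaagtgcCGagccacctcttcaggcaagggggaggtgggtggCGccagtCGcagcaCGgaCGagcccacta
Uhrf1 first start, chr17:56303087-56303336, plus strand: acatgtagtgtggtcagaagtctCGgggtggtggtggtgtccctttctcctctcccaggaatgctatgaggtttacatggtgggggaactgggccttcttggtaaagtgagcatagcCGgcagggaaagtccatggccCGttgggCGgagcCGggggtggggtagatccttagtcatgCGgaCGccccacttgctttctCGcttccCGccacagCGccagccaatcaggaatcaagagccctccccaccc
Dnmt1 is known to use an upstream oocyte-specific first exon, and its table entry holds 3 starts, the second 6909 and the third 7265 bases downstream of the first. In windows of 300 bases (250 before and 50 after a start), the upstream Dnmt1 start held 2 CpG, the second 12 and the third 33, against a median of 7 over 32851 promoters. Tet3 held 22, and the 2 Uhrf1 starts held 12 and 33. The letters CCAAT, searched on both strands, occurred 5 times at the upstream Dnmt1 start, 0 times at the second and 3 times at the third, 3 and 2 times at the Uhrf1 starts, and 1 time at Tet3. They occurred in 37.4% of all promoters in the table. Gene counts pool all starts, so which Dnmt1 start was used was not measured.

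Tet3 was the member with the lowest p in AA against YY, and the 1 member called in AY against AA. Tet3 (ENSMUSG00000034832, mm39 chr6:83339355-83436066, protein-coding) had a lowest, median and highest CPM of 333, 412 and 491 in AA. In YY these values were 531, 810 and 1260. All 12 AA libraries lay below the lowest YY library. The log2 fold change of AA against YY was -1.04 ± 0.12 (SE), a ratio of 0.488 (edgeR quasi-likelihood test, Benjamini-Hochberg adjusted p = 1.888e-07). In this comparison 27.5% of the 8533 genes tested were called at an adjusted p under 0.05, 14.7% lower and 12.8% higher in AA.

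The 2 runs of YY libraries differed in Tet3. Libraries S198 to S202 held 685, 676, 667, 531 and 579 CPM, and libraries S225 to S231 held from 810 to 1260 CPM with a median of 938. The 2 runs did not overlap, and all AA libraries lay below both. How many of all genes separate the 2 runs was not counted. AA called 451 of all 8311 genes against S198 to S202 and 3151 of all 8260 against S225 to S231 (edgeR). Against S198 to S202 alone the log2 change was -0.64 ± 0.10 (edgeR adjusted p = 8.132e-05), and against S225 to S231 alone it was -1.30 ± 0.10 (edgeR adjusted p = 1.044e-12).

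Of the maintenance pair, both genes fell in AA. Dnmt1 (ENSMUSG00000004099, chr9:20818505-20871184), the maintenance methyltransferase, held 255, 310 and 470 CPM (lowest, median, highest) in AA and 328, 544 and 852 CPM in YY. 7 of 12 AA libraries lay below the lowest YY library and all 12 below the YY median. The log2 change was -0.73 ± 0.14, a ratio of 0.601 (edgeR adjusted p = 0.0003185). Against S198 to S202 alone it was -0.48 ± 0.18 and no longer called (edgeR adjusted p = 0.123), and against S225 to S231 alone it was -0.92 ± 0.14 (edgeR adjusted p = 1.206e-05).

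Uhrf1 (ENSMUSG00000001228, chr17:56610321-56630486), which brings DNMT1 to half-methylated DNA, held 91.4, 136 and 220 CPM in AA and 136, 209 and 291 CPM in YY. 6 of 12 AA libraries lay below the lowest YY library, and the rest overlapped with YY. The log2 change was -0.53 ± 0.14, a ratio of 0.695 (edgeR adjusted p = 0.005173). It was of like size against each run of YY libraries, -0.55 against S198 to S202 and -0.51 against S225 to S231, but with the pattern as a random block the call was lost (-0.50, limma voom adjusted p = 0.0977).

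Among the de novo genes, only the partner without catalytic activity was called in AA against YY. Dnmt3l (ENSMUSG00000000730, chr10:77877781-77899456) held 161, 205 and 251 CPM in AA and 128.9, 163.3 and 209.4 CPM in YY. 6 of 12 AA libraries lay above the highest YY library. It rose by a log2 of 0.32 ± 0.09, a ratio of 1.25 (edgeR adjusted p = 0.006127). The call was lost against S198 to S202 alone (0.20, edgeR adjusted p = 0.316) and with the pattern as a random block (0.33, limma voom adjusted p = 0.0719).

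Dnmt3a (ENSMUSG00000020661, chr12:3856007-3964443), the catalytic de novo methyltransferase of oocytes, held 151 to 244.5 CPM in AA (mean 201.6 ± 33.3, SD, n = 12) and 156 to 297 CPM in YY (mean 220 ± 36.0, SD, n = 11). The groups overlapped, and the log2 change of -0.13 ± 0.10, with a 95% interval from -0.33 to 0.07, was not called (edgeR adjusted p = 0.356). Dnmt3b (ENSMUSG00000027478, chr2:153491370-153529650), its paralogue, had means of 12.8 ± 5.85 CPM in AA and 14.3 ± 6.72 CPM in YY (SD, n = 12 and 11; the interval of its log2 change, -0.71 to 0.35, is wide).

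Of the 2 protection genes, Dppa3 (ENSMUSG00000046323, chr6:122603369-122607231) held 3305, 4020 and 5035 CPM in AA and 2998, 3362 and 4555 CPM in YY. 11 of 12 AA libraries lay above the YY median, but only 1 above the highest YY library. Dppa3 rose by a log2 of 0.22 ± 0.08, a ratio of 1.17 (edgeR adjusted p = 0.02996). The call was lost when any 1 of AA replicates 1, 2, 3, 4, 8 and 10 or YY replicates 2, 6, 8 and 9 was left out, with edgeR adjusted p of up to 0.0691, and against either run of YY libraries alone (0.28 and 0.17).

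Zfp57 (ENSMUSG00000036036, chr17:37312055-37321527) held 2808, 3092 and 3544 CPM in AA and 2420, 2830 and 3462 CPM in YY, and was not called (0.08 ± 0.07, edgeR adjusted p = 0.380). As with Tet3, the 2 runs of YY libraries did not overlap in Zfp57, but in the opposite order, with 2961 to 3462 CPM in S198 to S202 and 2420 to 2830 CPM in S225 to S231. Without a count over all genes, this separation is not shown to be particular to Tet3 or Zfp57. Against the first run the log2 change was -0.07 (edgeR adjusted p = 0.617), and against the second 0.22 (edgeR adjusted p = 0.00905).

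AA against YY thus called 5 of the 8 tested members, 3 lower and 2 higher, beside 27.5% of all genes tested. The median log2 change of the 8 was -0.15, against -0.01 over all genes tested. With the pattern as a random block 2 members, Tet3 and Dnmt1, were called, beside 1081 of all 8533 genes tested (limma voom). When the libraries of each pattern were summed to 1 sample, leaving 2 AA and 4 YY samples, edgeR called 0 members and 2 of all genes. 3 members then had an unadjusted p under 0.05, beside 1465 of all 8533 genes tested. Tet3 stood at -1.04 ± 0.24 (edgeR adjusted p = 0.139). The summed CPM of 10 granulosa markers ran from 75.0 to 259 (median 109) in AA and from 53.7 to 97.6 (median 71.3) in YY, with 8 of 10 markers counted in each group, Amh at 0 in both, Foxl2 at 0 in YY and Krt18 at 0 in AA. Inha ran from 8.03 to 128.8 CPM in AA and from 0 to 24.2 CPM in YY. Inha (log2 change 2.78, edgeR adjusted p = 0.000128) and Inhba (1.99, edgeR adjusted p = 0.00133) were called higher in AA. Cyp19a1 (0.37) and Nr5a2 (-0.22) were tested and not called. Among the oocyte markers, Zp1 (0.50) and Zp2 (0.56) were called higher in AA and Dazl (-0.81) lower (edgeR). The part of these transcripts in the results above was not tested.

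**Figure D2:**
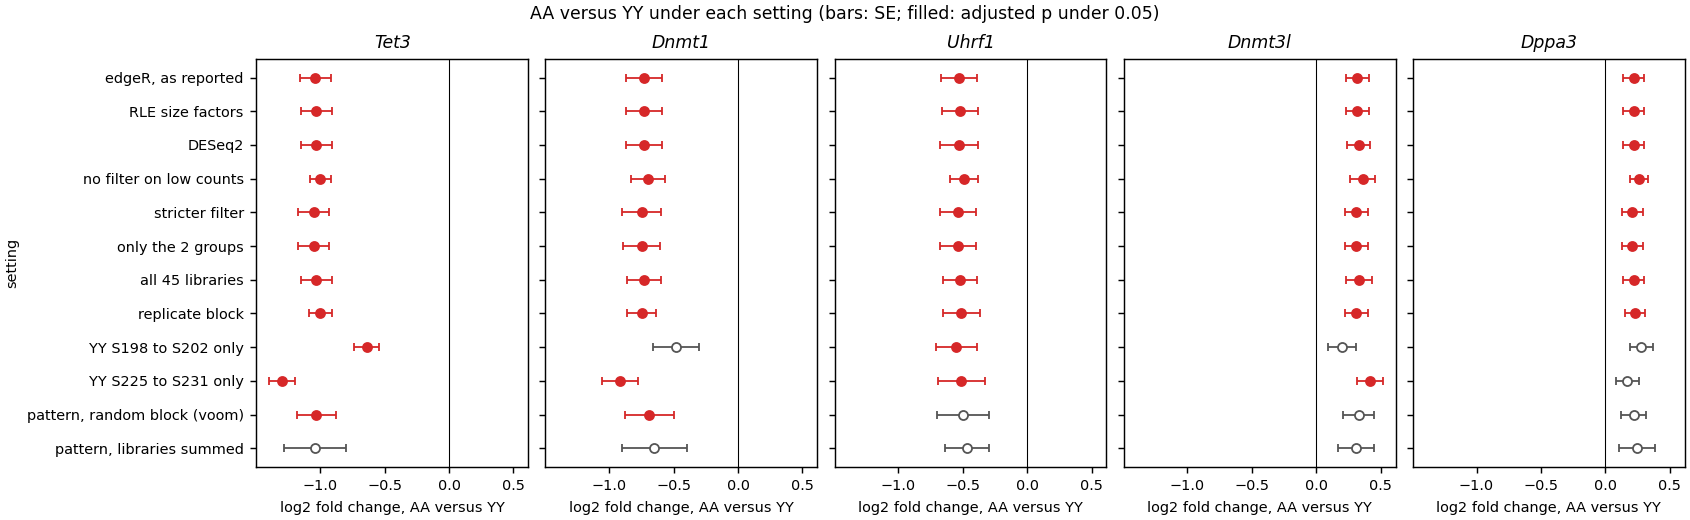
Log2 fold change of AA against YY on the x axis for the 5 called members under each setting on the y axis, with SE bars; filled points have an adjusted p under 0.05. Tet3 stays called in every setting shown but the summed patterns, while Dppa3 loses its call in 4 settings.

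Aged oocytes with young somatic cells were compared with aged oocytes with aged somatic cells to ask what the surrounding cells change. Tet3 was the 1 member called of 8 tested, in a comparison that called 6.59% of all genes (3.52% higher and 3.07% lower in AY). AY held 531, 622 and 844 CPM of Tet3, and all 6 AY libraries lay above the highest AA library at 491 CPM. Tet3 rose by a log2 of 0.67 ± 0.14, a ratio of 1.59 (edgeR adjusted p = 0.003499). It remained called when any 1 of the 18 libraries was left out and with the pattern as a random block (0.74, limma voom adjusted p = 0.0286), but not with patterns summed to 2 AY and 2 AA samples (0.80, edgeR adjusted p = 0.519). AY against AA shares the AA libraries with AA against YY, so the opposite signs of Tet3 in the 2 comparisons are not independent of each other.

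For the other members the interval of AY against AA included 0, except Dnmt3a. Dnmt1 held 293, 402 and 499 CPM in AY, 2 of 6 libraries above the highest AA library, with a log2 change of 0.22 and an interval from -0.12 to 0.56 (edgeR adjusted p = 0.490). Uhrf1 held 120.5, 163.1 and 230.2 CPM, with a change of 0.21 and an interval from -0.13 to 0.54. Most libraries of both genes overlapped between AY and AA.

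Dnmt3a was lowest in AY, at 114, 182 and 191 CPM. All 6 AY libraries lay below the AA median, and the log2 change of -0.28 ± 0.12 was not called (edgeR adjusted p = 0.172). Dnmt3l (139, 181 and 209 CPM in AY, change -0.20), Dppa3 (3018, 3531 and 4597 CPM, change -0.13), Zfp57 (2456, 3060 and 3189 CPM, change -0.08) and Dnmt3b (change -0.35) were not called either. The summed granulosa markers ran from 68.7 to 189 CPM in AY, which overlaps the 75.0 to 259 CPM in AA, and Inha was not called between them (-0.15, edgeR adjusted p = 0.897).

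**Figure D3:**
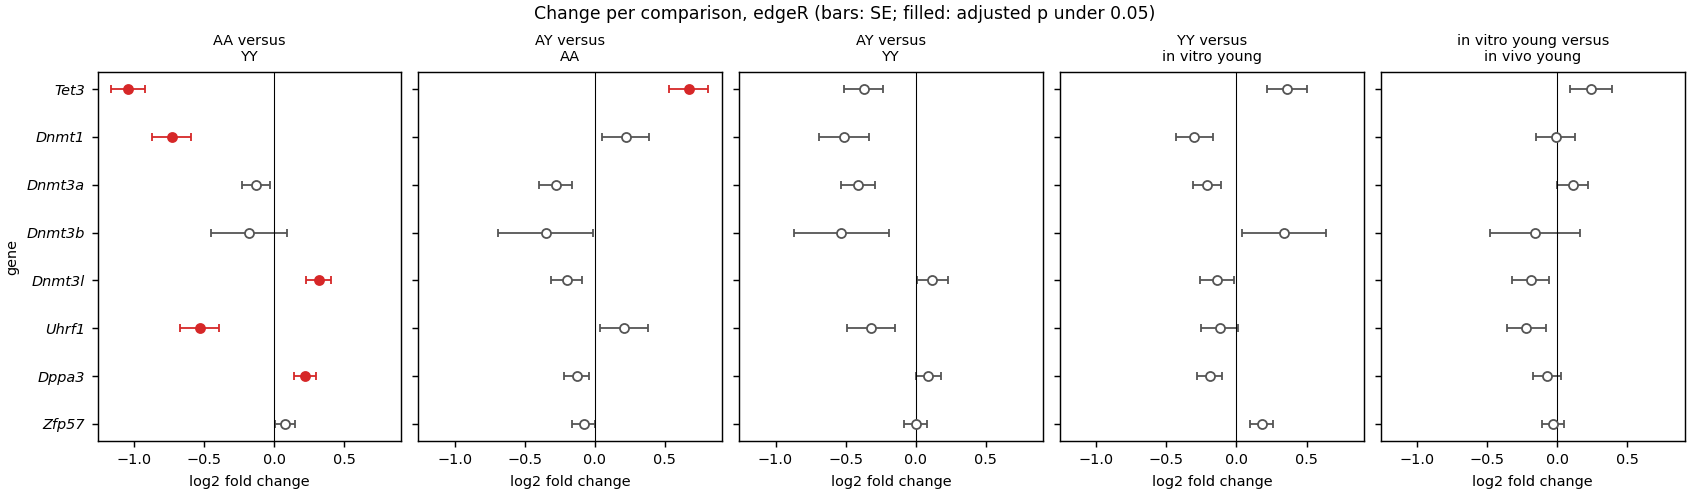
Log2 fold change (x axis) of the 8 tested members (y axis) in the 5 comparisons, with SE bars; filled points have an edgeR adjusted p under 0.05. 5 members are called in AA against YY, Tet3 alone in AY against AA, and none in the other 3 comparisons.

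AY was also compared with YY, which holds the somatic cells young and changes the age of the oocyte. edgeR called 0 of 8 members, beside 1.62% of all genes, and DESeq2 also called 0. 3 members had an unadjusted p under 0.05 (edgeR), beside 1202 of all 8533 genes tested. These were Dnmt3a (-0.41 ± 0.12, edgeR adjusted p = 0.0874), Dnmt1 (-0.51 ± 0.18, edgeR adjusted p = 0.156) and Tet3 (-0.37 ± 0.14, edgeR adjusted p = 0.230). All 6 AY libraries lay below the YY median of Dnmt1 and of Dnmt3a. Against the YY libraries S225 to S231 alone edgeR called these 3 genes, beside 847 of all 8260 genes tested. Tet3 stood at -0.63, Dnmt1 at -0.69 and Dnmt3a at -0.41 (edgeR adjusted p = 0.000759, 0.0101 and 0.0439). Against S198 to S202 alone Tet3 stood at 0.04. Inha was called higher in AY than in YY (2.63, edgeR adjusted p = 0.00969). The other tested granulosa markers were not called, Inhba at 1.80, Cyp19a1 at -0.08 and Nr5a2 at -0.44 (edgeR adjusted p = 0.0779, 0.947 and 0.248). Among the oocyte markers, Zp2 (0.52) was called higher in AY and Dazl (-0.40) lower (edgeR). The part of these transcripts in the values above was not tested.

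The controls ask what culture and the transfer of the oocyte change. Between in vitro young and in vivo young, edgeR and DESeq2 called 0 of 8 members, and edgeR called 0.137% of all genes. None of the members had an unadjusted p under 0.05, beside 844 of all 8749 genes tested (edgeR). Tet3 held 526.2, 604.2 and 907.6 CPM in vitro and 438, 524 and 810 CPM in vivo, and Dnmt1 held 579, 700 and 805 CPM in vitro and 534, 684 and 951 CPM in vivo. Both genes overlapped between the 2 groups. The interval of the difference was -0.28 to 0.27 for Dnmt1 and -0.05 to 0.54 for Tet3.

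For YY against in vitro young, edgeR and DESeq2 again called 0 of 8 members, beside 2.48% of all genes called by edgeR. 5 members had an unadjusted p under 0.05 (edgeR), beside 1455 of all 8749 genes tested. Tet3 (0.36) and Zfp57 (0.18) stood higher in YY, and Dnmt1 (-0.30), Dnmt3a (-0.21) and Dppa3 (-0.19) lower. Each run of YY libraries on its own called a different member. S225 to S231 called Tet3 (0.63, edgeR adjusted p = 0.0035), beside 803 of all 8925 genes tested. S198 to S202 called Zfp57 (0.34, edgeR adjusted p = 0.0405), beside 99 of all 8996, while Tet3 in that run stood at -0.04. The oocyte markers Zp2 (-0.88), Gdf9 (-0.60) and Zp3 (-0.42) were called lower in YY than in in vitro young, and none was called higher (edgeR). Among those not called, Zp1 (-0.51), Ddx4 (-0.44), Bmp15 (-0.33) and Npm2 (-0.01) stood lower in YY. Oosp1 (0.33), Dazl (0.29) and Figla (0.01) stood higher.

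The aged groups were also set beside the controls in 1 fit of all 45 libraries over 9162 genes, comparisons that were chosen after the values were seen and in which RCF, age and library number cannot be told apart. AA against in vitro young called 5 of 8 members and 16.0% of all genes, and AA against in vivo young 4 of 8 members and 12.6%. Dnmt1 held at most 470 CPM in AA and at most 499 CPM in AY, below the lowest of the 16 control libraries at 534 CPM. The log2 change of Dnmt1 in AA was -1.02 against in vitro young (edgeR adjusted p = 1.47e-06) and -1.03 against in vivo young (edgeR adjusted p = 7.206e-07). No AA or AY library reached the level of any control library in this gene. YY, the young RCF group, ran from 328 to 852 CPM, with 6 of 11 libraries below the lowest in vitro library. The summed oocyte markers held 14730 to 21380 CPM in AA and 17310 to 20890 CPM in AY against 15110 to 23170 CPM in vitro and 18850 to 26540 CPM in vivo, ranges that overlap, and their part in the differences from the controls was not tested.

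In AY the log2 change of Dnmt1 was -0.80 against in vitro young (edgeR adjusted p = 0.00239) and -0.81 against in vivo young (edgeR adjusted p = 0.00109), in comparisons that called 2 of 8 members beside 3.97% of all genes, and 3 of 8 beside 7.23%. Tet3 differed here from Dnmt1. In AY it lay within or above the control range, at 0.00 against in vitro young (edgeR adjusted p = 0.999), whereas in AA it fell by 0.67 on the log2 scale against in vitro young (edgeR adjusted p = 0.000305) and by 0.44 against in vivo young (edgeR adjusted p = 0.0188).

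Uhrf1 fell in AA against in vitro young (-0.64, edgeR adjusted p = 0.00101) and in vivo young (-0.87, edgeR adjusted p = 1.129e-05). Its 2 control groups held 153.8, 213.3 and 278.6 CPM in vitro and 210, 260 and 296 CPM in vivo, and 11 of 12 AA libraries lay below the lowest in vivo library. Zfp57 rose in AA against both controls (0.27 and 0.23, edgeR adjusted p = 0.00512 and 0.0200), with all 12 AA libraries above the highest in vitro library. Dnmt3a in AY lay below every in vitro library in 6 of 6 libraries and differed by -0.61 (edgeR adjusted p = 0.00166), and by -0.51 from in vivo young (edgeR adjusted p = 0.00626). The other calls were Dnmt3a in AA against in vitro young (-0.33, edgeR adjusted p = 0.0199) and Uhrf1 in AY against in vivo young (-0.66, edgeR adjusted p = 0.00731).

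Ordered by mean CPM in the same fit, Tet3 ran from YY (826) through AY (644), in vitro young (644) and in vivo young (547) to AA (406). Only the last step was called (0.44, edgeR adjusted p = 0.0188). Dnmt1 ran from in vivo young (698) and in vitro young (692) through YY (564) and AY (398) to AA (341), and Uhrf1 took the same order, from 258 to 141. No neighbouring pair in either order was called. Dppa3 and Dnmt3l were highest in in vivo young and lowest in YY, and Zfp57 was highest in AA and lowest in in vitro young, again with no neighbouring pair called. YY against in vivo young called 3 of 8 members beside 11.8% of all genes. Dppa3 (-0.27, edgeR adjusted p = 0.0339) and Dnmt3l (-0.33, edgeR adjusted p = 0.0340) have these 2 groups as the ends of their order. Tet3 (0.60, edgeR adjusted p = 0.0017) does not. Mean Tet3 was 628 CPM in YY S198 to S202 and 992 CPM in S225 to S231. Dnmt3a ran from in vitro young (254) to AY (167).

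Ratios of 2 members within a library do not depend on scaling between libraries. 3 ratios in 5 comparisons gave 15 permutation tests, adjusted together. The log2 ratio of Tet3 to Dnmt1, an eraser over the maintenance enzyme, was 0.70 ± 0.21 in AY, 0.56 ± 0.34 in YY, 0.27 ± 0.28 in AA, -0.12 ± 0.29 in in vitro young and -0.35 ± 0.15 in in vivo young (SD). It was higher in AY than in AA by 0.43 (two-sided exact permutation test, adjusted p = 0.0165) and in YY than in in vitro young by 0.68 (two-sided exact permutation test, adjusted p = 0.0022). With the YY libraries S198 to S202 alone the latter was 0.58 and did not pass (two-sided exact permutation test, adjusted p = 0.0747). Between AA and YY it differed by -0.29 (two-sided permutation test, adjusted p = 0.0957). The ranges of the 3 RCF groups overlapped, while every AY library (0.37 to 0.87) lay above every in vivo library (-0.55 to -0.12).

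The log2 ratio of Dnmt3a to Dnmt3l, catalytic subunit over partner, was 0.41 ± 0.25 in YY, -0.04 ± 0.23 in AA and -0.12 ± 0.38 in AY (SD). It was 0.49 ± 0.20 in in vitro young and 0.20 ± 0.40 in in vivo young (SD). The in vivo range of -0.20 to 0.98 overlapped those of AA (-0.48 to 0.33) and AY (-0.87 to 0.20). Both aged groups were lower than YY, AA by 0.46 (difference -0.46, two-sided permutation test, adjusted p = 0.0022) and AY by 0.53 (difference -0.53, two-sided exact permutation test, adjusted p = 0.00788). AY and AA differed by -0.08 (two-sided exact permutation test, adjusted p = 0.639). Against S198 to S202 alone neither difference passed (-0.33 and -0.41; two-sided exact permutation tests, adjusted p = 0.0747 and 0.0935). The log2 ratio of Dppa3 to Uhrf1 was 4.86 ± 0.43 in AA, 4.51 ± 0.36 in AY and 4.10 ± 0.39 in YY, and AA exceeded YY by 0.76 (two-sided permutation test, adjusted p = 0.0022).

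**Figure D4:**
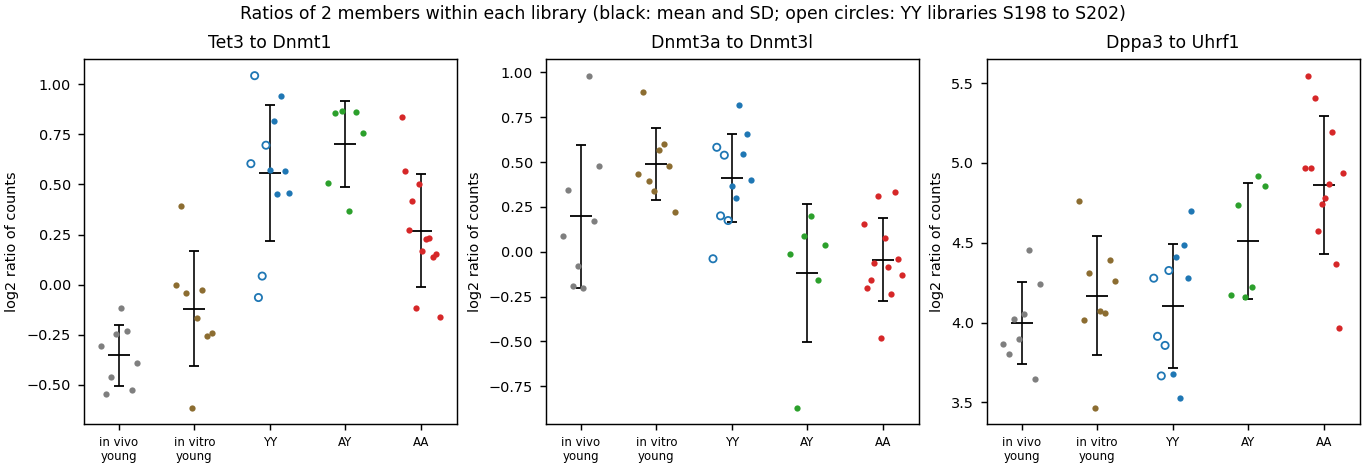
Log2 ratio of the counts of 2 members in each library (y axis) by group (x axis), with group mean and SD in black and open circles for the YY libraries S198 to S202. Dnmt3a to Dnmt3l is lower in AY and AA than in YY, and Tet3 to Dnmt1 is lowest in in vivo young.

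Across the 45 libraries the members did not move as 1 group. Pearson correlations of log CPM are given as a description, since libraries share group, number run and depth. Dnmt1 and Uhrf1 had r = 0.79 (0.52 within groups), and Tet3 and Dnmt1 had r = 0.59 (0.61 within groups). Zfp57 ran against Dnmt1, with r = -0.77 (-0.65 within groups), and Dnmt3l ran against Tet3, with r = -0.68 (-0.58 within groups). Dppa3 and Tet3 had r = -0.05 over all libraries and 0.50 within groups.

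The genes most like each member were sought among tested genes with a mean of at least 10 CPM. Genes with predicted, clone-derived or pseudogene names were left out. Those most like Tet3 over the 45 libraries were Slain1 (r = 0.91), Gbx2 (0.90) and Ice1 (0.90). Within groups these were 0.86, 0.86 and 0.76. For Uhrf1 the most like gene was Dnmt1 itself (0.79), followed by Map4 (0.78) and Rhpn2 (0.75), with 0.52, 0.57 and 0.52 within groups. For Dnmt1 the genes were Srrm2, Rhpn2 and Nasp, each at 0.80, with 0.45, 0.61 and 0.52 within groups. Zfp57 was most like Riok1 (0.79), Dnmt3l most like Khdc1b (0.78), Dnmt3a most like Srrm2 (0.71), Dppa3 most like Ftdc1 (0.69) and Dnmt3b most like Epha6 (0.49). Within groups these were, in the same order, 0.76, 0.74, 0.56, 0.63 and 0.48.

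Other genes of these pathways were described by 7 lists of 68 genes, of which 46 passed the filter in the RCF groups. AA against YY called 15 of the 46, 6 higher and 9 lower, beside 27.5% of all genes. Their median log2 change was -0.10, against -0.01 over all genes tested. In the other 4 comparisons edgeR called 0. In AY against AA 10 of 46 had an unadjusted p under 0.05, beside 1869 of all 8533 genes tested. In AY against YY 7 of 46 did, beside 1202 of all 8533. In the fit with the controls 47 related genes were tested. 10 of them had such a p in YY against in vitro young, beside 1455 of all 8749 genes. Between in vitro and in vivo young 5 did, beside 844 of all 8749. Whether these counts differed from the shares over all genes was not tested. DESeq2 called 0 in AY against AA, Ogt in AY against YY, Kdm1b and Mat2b in YY against in vitro young and 0 between the controls.

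Genes that act with TET proteins went both ways in AA against YY, 3 higher and 2 lower of 7 tested, beside 12.8% higher and 14.7% lower of all genes. With the pattern as a random block, Ogt and Cul4b of this list were called, beside 1081 of all 8533 genes tested (limma voom). Ogt, the O-GlcNAc transferase that binds TET proteins, averaged 83.2 ± 17.6 CPM in AA and 44.99 ± 12.2 CPM in YY (SD, n = 12 and 11) and rose, with a log2 change of 0.88 ± 0.16 (edgeR adjusted p = 8.282e-05). Dcaf1, a substrate receptor of the CUL4 ubiquitin ligase, fell from 44.1 ± 13.7 to 32.5 ± 9.04 CPM (-0.45 ± 0.17, edgeR adjusted p = 0.0393). Cul4b and Idh1 also rose, and Cul4a fell.

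3 of 6 tested genes listed for imprint protection along with ZFP57 fell and none rose, beside 14.7% of all genes called lower and 12.8% higher. Trim28, the corepressor that ZFP57 recruits, fell from 69.9 ± 19.8 to 48.5 ± 13.3 CPM (-0.55 ± 0.16, edgeR adjusted p = 0.00756), and Setdb1 (-0.29, edgeR adjusted p = 0.0454) and Ctcf (-0.31, edgeR adjusted p = 0.0424) were the other two. Both of these lost their call in the fit of all 45 libraries and with the pattern as a random block, where Trim28 was called. Of 5 tested de novo partners, Setd2, the H3K36 methyltransferase whose mark guides DNMT3A in oocytes, fell from 79.6 ± 20.3 to 51.8 ± 12.7 CPM (-0.64 ± 0.15, edgeR adjusted p = 0.00111). Of 7 maintenance partners, the chromatin remodeller Hells rose (0.31 ± 0.09, edgeR adjusted p = 0.00765) and the zinc-finger gene Zbtb24 fell (-0.72 ± 0.23, edgeR adjusted p = 0.0155).

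Of 8 tested genes of base excision and repair, Polb, the repair polymerase, rose (0.38 ± 0.11, edgeR adjusted p = 0.00793) and Xrcc1, its scaffold, fell (-0.42 ± 0.12, edgeR adjusted p = 0.0082). In methyl donor supply 8 were tested: Mat2b, the regulatory subunit of methionine adenosyltransferase, rose (0.24 ± 0.06, edgeR adjusted p = 0.0032) and Mthfd1 of the folate cycle fell (-0.58 ± 0.16, edgeR adjusted p = 0.00438). None of 5 tested 5-methylcytosine readers was called by edgeR. In AA against YY edgeR called 27.5% of all 8533 genes tested. Whether the repair, methyl donor or reader lists differed from that share was not tested. Against S198 to S202 alone Xrcc1 was the 1 related gene called, beside 451 of all 8311 genes tested (edgeR). With the pattern as a random block the calls were Cul4b, Mat2b, Ogt, Setd2 and Trim28, beside 1081 of all 8533 (limma voom).

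**Figure D5:**
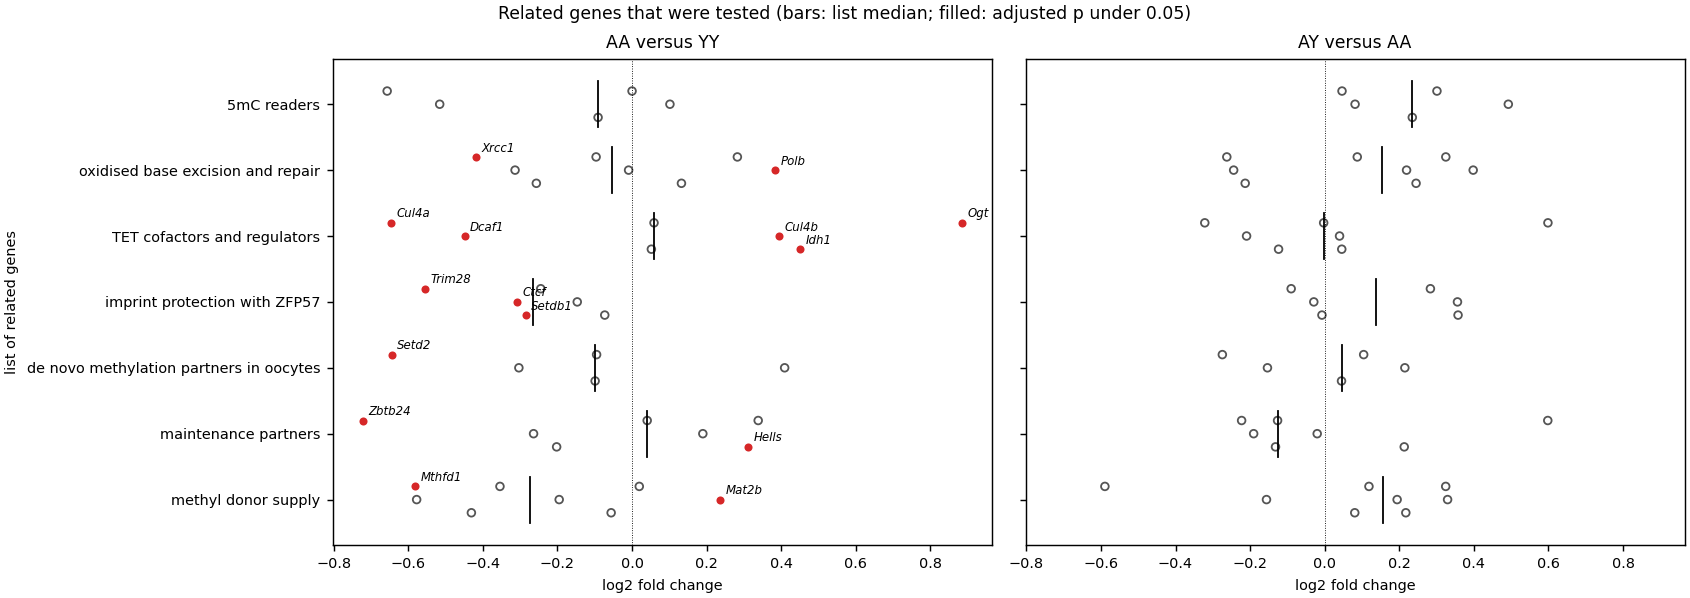
Log2 fold change (x axis) of each tested related gene by list (y axis) for AA against YY (left) and AY against AA (right); black bars are list medians and filled, named points have an edgeR adjusted p under 0.05. 15 genes are called on the left, from Zbtb24 at -0.72 to Ogt at 0.88, and none on the right.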

How the data were processed

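RNA was measured in 45 single oocytes. The deposited values are whole-number counts of reads per gene that the authors left unnormalized. The submitters' processing notes name the aligner STAR (2.7.8a), HTSeq (0.11.0) and mm39 as tools and build of these deposited counts; use of strand and the treatment of reads shared between genes are not given in the sources used here. Per the labels' protocols, cDNA was amplified by PCR with no molecular identifiers named, so counts are not counts of molecules. Coordinates are those of the deposited table, counted from 1.

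The members and gene lists were chosen with earlier results of these data known. All 10 members are named. Libraries were grouped by title. edgeR 4.0.16 (R 4.3.3) was run with TMM, filterByExpr by group (minimum count 10, minimum total 15) and a robust quasi-likelihood fit, over AA, AY and YY (29 libraries, 8533 genes) and over YY and the controls (27 libraries, 8749 genes). p-values were Benjamini-Hochberg adjusted over all genes tested and called under 0.05. edgeR was tested on simulated data. Comparisons of AA and AY with the controls came from 1 fit of all libraries. Ratios had 0.5 added to each count and were tested by permutation (exact, or 100000 resamples where both groups had at least 10 libraries). Likeness used log CPM with a prior count of 2. Lengths are from GENCODE M21. All pairs of libraries within groups differed by more than counting error (chi-square over its degrees of freedom at least 2.08). Alternatives were RLE scaling, DESeq2 1.42.0, other filters, other sets of libraries, the replicate number as a block, pattern blocks with limma 3.58.1 voom, patterns summed, and leaving out each library. A pattern is the on or off state of 8 genes whose sorted log2 CPM held a gap of at least 3 with at least 3 libraries on each side.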

Additional observations from a re-analysis of the deposited data

Results flagged for a closer look

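In in vivo young, Tet3 in replicate 6 stood apart from the other 7 libraries, at 810 CPM against 578 CPM for the next highest and 438 CPM for the lowest. The gap was 0.625 of the group's range, above the critical value of 0.526 for 8 samples. This library (S74) had the largest total of all 45, 2201980 counts, and the part of its depth in the value was not tested. In all, 30 groups of values were examined, and chance gives such a gap in about 1 in 20.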

How the results depend on the processing

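Limits: the number of libraries, the missing link to animals and the 2 runs of YY libraries bound these results, and Tet1, Tet2 and Dnmt3b are limited by low counts. RLE scaling and both filters on low counts changed no member's call in any comparison. Where a call or count changed, the cause was not tested, except that summed patterns and single runs leave fewer samples.

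The counts of members called were, for AA against YY, 2 with YY S198 to S202 only, 2 with the pattern block (a random effect) and 0 with patterns summed; for AY against AA, 0 with patterns summed (edgeR, 2 at an unadjusted p under 0.05); for AY against YY, 3 with S225 to S231 only; and for YY against in vitro young, 1 with either run alone. Over all genes, AA against YY called 2348 genes, 451 with S198 to S202, 1081 with the pattern block and 2 with patterns summed. AY against AA called 562, 876 with only the 2 groups, 80 with the pattern block and 1 with patterns summed (805 at an unadjusted p under 0.05). AY against YY called 138, 847 with S225 to S231, 236 with no filter, 79 with only the 2 groups, 22 with the pattern block and 0 with patterns summed (464 at an unadjusted p under 0.05). YY against in vitro young called 217, 404 with DESeq2, 378 with all 45 libraries, 803 with S225 to S231, 99 with S198 to S202, 88 with the pattern block and 0 with patterns summed (849 unadjusted). In vitro against in vivo young called 12, 44 with DESeq2, 29 with all 45 libraries, 29 with no filter, 20 with only the 2 groups, and 0 with the pattern block (597 unadjusted) or patterns summed (558 unadjusted).

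The sign turned for Dnmt3b in AA against YY (0.06 with S225 to S231), Zfp57 in AA against YY (-0.07 with S198 to S202), Tet3 with S198 to S202 in AY against YY (0.04) and YY against in vitro young (-0.04), and Zfp57 in AY against YY (-0.15 with S198 to S202, -0.06 with patterns summed, -0.02 with the pattern block). The ratio of Tet3 to Dnmt1 in AA against YY passed with S225 to S231 (-0.37) and that in YY against in vitro young no longer passed with S198 to S202 (0.58). Dnmt3a to Dnmt3l gave -0.33 (AA) and -0.41 (AY) against S198 to S202, and in YY S225 to S231 against in vitro young it stood at 0.02 and Dppa3 to Uhrf1 at 0.01.

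Replicate numbers are shared between groups, and the labels do not say whether they pair samples. Same-numbered libraries did not deviate together in every pair (over the comparisons, the lowest correlation was -0.21 to -0.07, the median -0.01 to 0.08 and the highest 0.04 to 0.24). Libraries with different numbers were not compared in this way, so pairing by number was not settled. With the replicate block, AY against AA called 2 members (Dnmt1 joined Tet3 at 0.43, edgeR adjusted p = 0.0302) and 1078 of all genes; YY against in vitro young called 115 and in vitro against in vivo young 6 of all genes, Zfp57 in AY against YY stood at -0.08 and Dnmt1 between the controls at 0.01. The block changed no other member's call.

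Leaving out 1 library at a time gave 4 to 5 members called in AA against YY, 1 in AY against AA and 0 in the other 3 comparisons. The counts over all genes ran from 1961 to 2514 (AA against YY), from 203 without AY replicate 1 (306 without AY replicate 6) to 607 (AY against AA), from 84 without AY replicate 5 (85 and 88 without AY replicates 2 and 4) to 155 (AY against YY), and from 114 without in vitro young replicate 5 to 352 without replicate 3 (126, 125 and 130 without replicates 6, 7 and 8) for YY against in vitro young. In vitro against in vivo young ran from 0, without in vitro young replicate 1, 3 or 5 or in vivo young replicate 3, 4 or 8, to 18. Ranges that crossed 0 were those of Dnmt1 (-0.05 to 0.07) and Dnmt3b (-0.29 to 0.00) between the controls, Dnmt3b in AA against YY (-0.28 to 0.01) and Zfp57 in AY against YY (-0.02 to 0.04).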
